A study of Mus musculus with 12 samples.

Results

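The cytosolic ribosomal protein genes of mouse were described in cultured liver cells, as rows of the deposited raw count table picked by symbol. The symbol had to be Rpl or Rps and a number, with nothing after it except a letter a, l or x and further digits. Rplp0, Rplp1, Rplp2 and Rpsa were also taken, and pseudogene rows named with -ps were not. This naming rule found 89 of 53599 rows, 53 of the large subunit and 36 of the small subunit. A filter on low counts left 84 of them among 14798 tested genes. The 5 members left out were Rps12l1, Rpl10l and Rpl39l, with 0 counts in all 12 libraries, Rpl3l with 11 counts in total and Rpl32l with 72. The rule takes some copies along: 83 of the 89 rows were annotated as protein-coding in GENCODE M21 and 6 (Rps4l, Rps12l1, Rpl32l, Rpl6l, Rps3a2 and Rps3a3) as processed pseudogenes.

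RNA sequencing libraries came from 4 groups of 3. The hepCLiP 3D group held hepatocyte-derived cells grown as spheroids, which formed in microwells over 3 days without serum and stayed in suspension, with the cytokine oncostatin M at 10 ng/ml, for another 6 to 8 days. The hepCLiP 2D group held the same kind of cells on collagen-coated plates with 10% fetal bovine serum. The bilCLiP 3D and bilCLiP 2D groups held cells derived from biliary epithelial cells (BEC in the labels), cultured in these same ways. All 4 groups received small hepatocyte medium with Y-27632, A83-01 and CHIR99021, small molecules that inhibit protein kinases. The change of culture therefore joins spheroid form, removal of serum, oncostatin M and time, and the design cannot tell these apart. The genotype was RosaConfetti in hepCLiP replicates 1 and 3 and RosaYFP in hepCLiP replicate 2 and all bilCLiP libraries, both of them fluorescent reporters at the Rosa26 locus, so that origin and reporter were partly confounded. Groups were taken from the titles. The treatment tags go against the title in hepCLiP 2D replicate 3, tagged as 3D, and in all 3 bilCLiP 3D libraries, tagged as 2D. The 7 hepatocyte markers on the list used (summed level 52650 to 129600 CPM, counts scaled to a common library size, in the libraries titled 3D and 2608 to 6594 in those titled 2D) followed the titles. Summed biliary markers stood at 11350 to 33340 CPM in 3D and 3618 to 10910 CPM in 2D, but most of the list went the other way. Of these 7 markers, 1 was called higher and 4 lower in hepCLiP 3D by the edgeR test used below, against 17.9% of all genes lower. In bilCLiP 3D 1 was called higher and 3 lower, against 14.5% of all genes lower. Their median log2 fold changes (3D over 2D) were -3.18 in hepCLiP and -2.01 in bilCLiP. Fibroblast markers summed to 284.2 CPM in hepCLiP 3D replicate 1 and to at most 19.14 CPM elsewhere, mesothelial markers to 5.567 to 27.85 CPM in 3D and 333.3 to 988.8 CPM in 2D, and macrophage, endothelial and red cell markers to at most 19.46, 3.661 and 0.5001 CPM. Of the 4 mesothelial markers, 1 passed the filter on low counts, and each library had 1 to 3 of them at 0 counts. Libraries held 16142365 to 21253382 counts.

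Most ribosomal proteins are present in equal number in a ribosome, so cells make these proteins in matched amounts from many unlinked genes. Their mRNAs are among the most abundant in growing cells and begin with a 5′ terminal oligopyrimidine (TOP) tract, a run of C and T letters at the transcription start that lets the kinase mTORC1 and the binding protein LARP1 control their translation as a group. MYC and RNA polymerase I activity accompany high ribosome production in growing cells, including regenerating liver. Levels of mRNA, as measured here, do not report translation.

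Runs of C or T letters were counted around the annotated start sites, which is wider than a TOP tract at the start itself. RefSeq promoter windows (GRCm38.p6; 250 bases before to 50 after the start) were found by symbol for 64 of the 89 members, 60 of them tested, with 71 windows. A run of 8 or more C or T between 20 bases before and 30 bases after the annotated start was present in 49.3% of these windows, against 19% of all 32851 mouse windows. Such a run may lie upstream of the start or well inside the transcript, so these are not counts of TOP tracts. The complementary A or G run was present in 8.45% of member windows and 21.9% of all windows. Over the whole window on either strand, CCGGAAG (the core of ETS factor motifs) was present in 36.6% of member windows and 8.86% of all windows, and GGGCGG (the core of SP1 motifs) in 62% and 35.7%. The letters TATATAA were present in 5.63% against 3.24%, and GCGCATGC in 4.23% against 2.71%. These are matches of letters, not measured binding. The windows below run from 30 bases before the start through the first 30 transcribed bases, 5′ to 3′, with the longest C or T run from 20 bases before the start onward in capitals. Rps6 and Rplp2, which have a run at the start itself, are shown with Rpl13a, the member with the largest called fall, with Rps27 and Rpl11, and with Rpl39 and Rpl23, which were called higher in bilCLiP 3D. They lie at chr4:86857338-86857397 (minus strand), chr7:141447621-141447680 (plus), chr7:45128716-45128775 (minus), chr3:90213619-90213678 (minus), chr4:136053364-136053423 (minus), chrX:37085193-37085252 (minus) and chr11:97782410-97782469 (minus).
Rps6: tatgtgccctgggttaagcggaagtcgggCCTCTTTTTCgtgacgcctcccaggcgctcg
Rplp2: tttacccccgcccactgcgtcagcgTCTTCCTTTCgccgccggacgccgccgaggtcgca
Rpl13a: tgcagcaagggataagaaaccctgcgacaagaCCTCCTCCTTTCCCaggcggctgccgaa
Rps27: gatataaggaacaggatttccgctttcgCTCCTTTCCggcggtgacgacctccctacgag
Rpl11: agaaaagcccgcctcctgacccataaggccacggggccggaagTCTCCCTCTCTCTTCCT
Rpl39: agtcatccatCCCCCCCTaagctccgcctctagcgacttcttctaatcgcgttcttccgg
Rpl23: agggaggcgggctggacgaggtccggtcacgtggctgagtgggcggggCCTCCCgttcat
In Rps6, Rplp2 and Rps27 the run covers the annotated start, and in Rpl13a it lies just downstream. In Rpl11 it begins at transcribed base 14 and reaches the end of the printed window, where it may be cut. In Rpl39 it lies upstream, and it extends 1 letter beyond the limit of 20 bases. The longest run of Rpl23 has 6 letters, under the 8 used as the limit. Members with such a run (34) and without it (26) had similar culture effects. Their median log2 fold changes of 3D over 2D were -0.21 and -0.23 in hepCLiP and 0.28 and 0.24 in bilCLiP.

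Ribosomal protein genes took a smaller part of the hepCLiP 3D libraries than of any other group. Their share of all counts was 2.573%, 2.794% and 3.208% in hepCLiP 3D (replicates 1 to 3), against 4.429%, 5.412% and 5.249% in hepCLiP 2D. The groups did not overlap, and the means were 2.858% ± 0.322 and 5.03% ± 0.527 (SD, n = 3 each). In bilCLiP the share was 5.485%, 3.226% and 3.668% in 3D, against 5.619%, 4.642% and 3.956% in 2D, and the groups overlapped. A share depends on what else is in the library. The 10 most abundant other genes took 17.6% to 23.2% of counts in 3D libraries and 5% to 7.47% in 2D libraries, and without them the mean member share was 3.605% in hepCLiP 3D against 5.304% in hepCLiP 2D. For bilCLiP it was then 5.094% in 3D against 5.064% in 2D. Scaling by TMM (trimmed mean of M values), which sets libraries level on the bulk of genes, gave summed member levels of 36080 ± 2430 CPM in hepCLiP 3D against 42840 ± 4885 CPM in hepCLiP 2D, and 46440 ± 10380 CPM in bilCLiP 3D against 38710 ± 5765 CPM in bilCLiP 2D. After this scaling the groups overlapped in both cell kinds. In hepCLiP, 3D replicate 3 had 38208 CPM and 2D replicate 1 had 37227 CPM. In bilCLiP, 3D replicate 2 had 39135 CPM and 2D replicate 1 had 44645 CPM. All of these are relative levels: fewer cells of a type and less RNA per cell cannot be told apart in bulk samples.

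**Figure D1:**
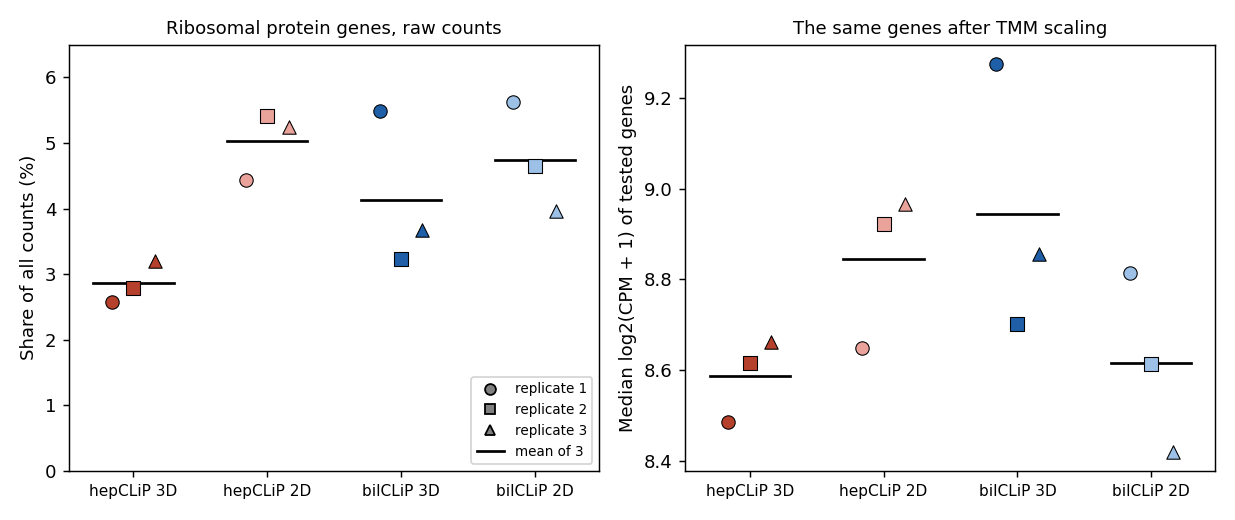
Left, the share of all raw counts on the 89 ribosomal protein genes in each library (percent). Right, the median log2(CPM + 1) of the 84 tested members after TMM scaling, on an axis that does not start at 0. Points are libraries, shaped by replicate, and lines are means of 3. On the left hepCLiP 3D lies below every other library, and on the right bilCLiP 3D replicate 1 is the highest of the 12.

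Members moved in step with each other from library to library. In bilCLiP 3D, replicate 1 lay above its group mean in 81 of 84 members, replicate 2 in 3 and replicate 3 in 11. In bilCLiP 2D the numbers were 78, 53 and 4. In hepCLiP 3D they were 16, 44 and 60, and in hepCLiP 2D 9, 73 and 56. The 84 members are therefore not 84 separate measurements of a condition, and bilCLiP 3D replicate 1 weighs on every result for that group.

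In hepCLiP cells the median member was lower in 3D than in 2D under each scaling tried, and with TMM scaling few members passed the test. Between hepCLiP 3D and 2D, 3 members were called lower and 0 higher at an adjusted p under 0.05 (edgeR), against 17.9% of all tested genes called lower and 16.9% called higher. The member count was below the background in both directions. The median log2 fold change (3D over 2D) of members was -0.23, against -0.06 for all genes, with 75 of 84 below 0 and a range of -1.01 to 0.18. Without hepCLiP 3D replicate 1 the median was -0.11, with 28 members above 0. Changes beyond 2-fold were seen in 1 member, against 30.8% of all genes. At an unadjusted p under 0.05, 9 members were lower and 0 higher, against 45.3% of all genes in either direction. DESeq2 and limma each called 4 members lower and 0 higher, against 18.9% and 19.2% of all genes lower.

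Rpl13a, a large-subunit protein that in human myeloid cells can also leave the ribosome to join a translational silencing complex, had 28.4, 30.1 and 45.1 CPM in hepCLiP 3D (replicates 1 to 3), against 55.7, 67.3 and 66.2 CPM in hepCLiP 2D. All 3D libraries lay below all 2D libraries. Its log2 fold change was -0.87 ± 0.25 (SE; edgeR adjusted p = 0.0204). Rplp2, an acidic protein of the stalk that recruits elongation factors, had 306, 325 and 339 CPM in hepCLiP 3D against 417, 530.0 and 529 CPM in hepCLiP 2D. These groups did not overlap either, and the log2 fold change was -0.60 ± 0.20 (edgeR adjusted p = 0.0382). Rpl3, a core protein near the peptidyl transferase centre, had 531, 579.7 and 609.7 CPM in hepCLiP 3D against 681, 819 and 865 CPM in hepCLiP 2D. It too was without overlap, at -0.46 ± 0.16 (edgeR adjusted p = 0.0469). None of the 3 calls held in every leave-one-out fit. Without hepCLiP 3D replicate 1, 3D replicate 2 or 2D replicate 2, 0 members were called lower, without 2D replicate 3, 1, and without 2D replicate 1, 5. The fibroblast markers given above were highest in hepCLiP 3D replicate 1, and their part in the result was not tested.

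Same-numbered 3D and 2D libraries of an origin deviated together from their group means, and with the replicate number as a block 16 members were called lower and 0 higher in hepCLiP, against 24.7% of all genes lower and 22.4% higher. The share of members, 16 of 84, was again not above the background. The 16 held the 3 above and, among others, Rps28 (log2 fold change -0.74, blocked edgeR adjusted p = 0.00547), Rpl29 (-0.52, 0.00739), Rpl14 (-0.61, 0.008) and Rpsa (-0.68, 0.00942).

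In bilCLiP cells the median member was higher in 3D with TMM scaling, but lower, at -0.22, when libraries were scaled to total counts. Between bilCLiP 3D and 2D, 7 members were called higher and 0 lower (edgeR), against 15.8% of all genes called higher and 14.5% called lower. Again the member share was below the background. The median log2 fold change was 0.25, against -0.00 for all genes, with 76 of 84 above 0 and a range of -0.42 to 0.85. No member passed 2-fold, against 27.8% of all genes. At an unadjusted p under 0.05, 19 members were higher and 0 lower, against 41.4% of all genes in either direction. DESeq2 called 14 members higher, against 2743 of all 14798 genes, and limma on the authors' normalized values 5, against 15.1% of all genes, each with 0 lower.

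Rps29, a small zinc-binding protein of the small subunit, had the largest of these changes, with 614, 413 and 418 CPM in bilCLiP 3D (replicates 1 to 3) against 325, 289 and 187 CPM in bilCLiP 2D. The groups did not overlap, and replicate 1 was the highest of the 3D libraries. The log2 fold change was 0.85 ± 0.29 (edgeR adjusted p = 0.0444). Rpl39, a short protein that lines the exit tunnel of the large subunit, had 546, 369.7 and 417 CPM in bilCLiP 3D against 313, 279.5 and 239 CPM in bilCLiP 2D. It rose without overlap, with a log2 fold change of 0.68 ± 0.21 (edgeR adjusted p = 0.0313). Rpl23, a large-subunit protein whose human counterpart binds the p53 ubiquitin ligase MDM2 when it is not in ribosomes, had 1172, 807 and 872 CPM in bilCLiP 3D against 663, 569 and 552 CPM in bilCLiP 2D. Its log2 fold change was 0.68 ± 0.19 (edgeR adjusted p = 0.0209), again without overlap.

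Rps27a, made as a fusion with ubiquitin, had 656, 539 and 558 CPM in bilCLiP 3D against 430.0, 392 and 346 CPM in bilCLiP 2D, a log2 fold change of 0.59 ± 0.20 (edgeR adjusted p = 0.0445). Every 3D library was above every 2D library. Rpl37, a zinc-binding protein of the large subunit, had 469.8, 297 and 367 CPM in bilCLiP 3D against 276, 247 and 238 CPM in bilCLiP 2D, a change of 0.58 ± 0.20 (edgeR adjusted p = 0.0479). Rpl37a, another zinc-binding protein of the large subunit, had 522, 352 and 358 CPM in bilCLiP 3D against 311, 309 and 234 CPM in bilCLiP 2D, a change of 0.53 ± 0.18 (edgeR adjusted p = 0.0494). Neither pair of groups overlapped, and replicate 1 was the highest 3D library for all these genes.

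The number of calls rested on single libraries. Without bilCLiP 3D replicate 1, 0 members were called and the median fell to 0.12. Without bilCLiP 2D replicate 2 or 2D replicate 3, 0 were called, without bilCLiP 3D replicate 3, 1, and without hepCLiP 3D replicate 2 or hepCLiP 2D replicate 2, which enter through the shared estimate of spread, 4. With the replicate number as a block, 29 members were called higher and 0 lower, against 21.7% of all genes higher and 21.5% lower. That share, 29 of 84, was above the background. The 29 held all 7 members called without the block, and with them, among others, Rps27 (log2 fold change 0.71, blocked edgeR adjusted p = 0.00781), Rpl36a (0.59, 0.00793), Rpl26 (0.56, 0.00963) and Rpl5 (0.48, 0.02).

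**Figure D2:**
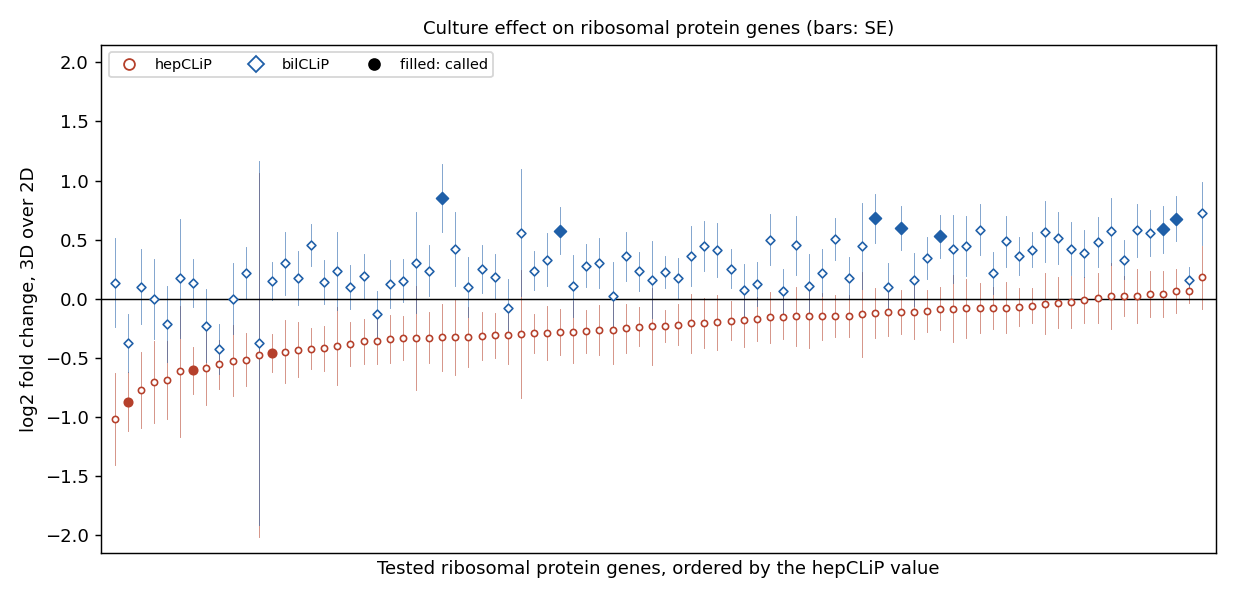
Log2 fold change of 3D over 2D for each of the 84 tested members in hepCLiP (circles) and bilCLiP (diamonds), ordered along the horizontal axis by the hepCLiP value, with bars of 1 SE. Filled points are those called by edgeR at an adjusted p under 0.05, 3 in hepCLiP and 7 in bilCLiP. The bilCLiP point lies above the hepCLiP point in every member.

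The direction of the family in bilCLiP depends on scaling. Scaled to total counts, the member median of 3D over 2D was -0.80 in hepCLiP (62 members lower, with 44.8% of all genes lower) and -0.22 in bilCLiP (0 higher and 4 lower, with 36.6% of all genes lower), while the median of all genes shifted to -0.63 and -0.47. Relative to the median of all genes, members were at -0.17 in hepCLiP and 0.25 in bilCLiP both with TMM and with total counts. A change of scaling shifts all genes by nearly the same amount. This offset therefore had to stay the same and is no check on the direction. Scaled to total counts, the 7 members called higher in bilCLiP 3D had log2 fold changes of 0.07 (Rpl37a) to 0.39 (Rps29) and none was called. With upper-quartile scaling, 2 of the 7, Rpl39 and Rpl23, were called.

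The difference between the 2 culture effects passed the test in no member. The difference between the culture effects (bilCLiP minus hepCLiP) was above 0 in 84 of 84 members, against 56.4% of all genes, with a median of 0.54 against 0.06 and a range of 0.09 to 1.18. At an adjusted p under 0.05, edgeR called 0 members and 0 of all 14798 genes in either direction, which is 0% of genes. At an unadjusted p under 0.05, 14 members were higher and 0 lower, of 532 genes in all (3.6% of those tested). DESeq2 and limma called 0 members, and DESeq2 called 13 of all 14798 genes higher and 3 lower. Across leave-one-out fits, 78 to 84 members stayed above 0, with 78 and a median of 0.31 without bilCLiP 3D replicate 1. The sign is shared by members that vary together, so the count of 84 does not carry the weight of 84 separate results.

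Origin alone gave no edgeR call among the members with all 12 libraries. Between bilCLiP and hepCLiP in 3D, the median log2 difference of members was 0.42, against 0.00 for all genes, with 75 of 84 above 0, and edgeR called 0 members, against 0.0541% of all genes called higher and 0.0473% lower. At an unadjusted p under 0.05, 32 members were higher in bilCLiP 3D and 0 lower, against 16.6% of all genes in either direction. DESeq2 called 8 members higher, against 261 of all 14798 genes, and limma 0. Without hepCLiP 3D replicate 3 edgeR called 3 members higher, against 0.878% of all genes. Rps29 gave 0.90 ± 0.29 (edgeR adjusted p = 0.195) and Rpl39 0.85 ± 0.21 (edgeR adjusted p = 0.159). Without bilCLiP 3D replicate 1 the median was 0.21. Between bilCLiP and hepCLiP in 2D the median was -0.11, against -0.04 for all genes, with 27 of 84 above 0. There edgeR called 0 members, against 0.0811% of all genes called higher and 0.0541% lower, and DESeq2 and limma called 0. At an unadjusted p under 0.05, 0 members were higher and 9 lower, against 14.5% of all genes in either direction.

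Members of the stalk and those known for roles outside the ribosome were as follows. Rplp0, the base of the stalk, had 1680.1, 1688 and 1954 CPM in hepCLiP 3D against 1814, 2291 and 2561 CPM in hepCLiP 2D, and 2710.1, 1576 and 1699 CPM in bilCLiP 3D against 2229, 1834 and 1529 CPM in bilCLiP 2D. Both pairs overlapped, and the log2 fold changes were -0.32 ± 0.25 in hepCLiP and 0.10 ± 0.25 in bilCLiP (edgeR adjusted p = 0.347 and 0.807). Rplp1, the partner of Rplp2 in the stalk, gave -0.32 ± 0.32 in hepCLiP and 0.42 ± 0.32 in bilCLiP and was called in neither.

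Rpsa, a small-subunit protein also known as the laminin receptor precursor, had 1020.1, 1089 and 1102 CPM in hepCLiP 3D against 1592, 1754 and 1819.9 CPM in hepCLiP 2D, groups that did not overlap. Its log2 fold change there was -0.69 ± 0.33 (edgeR adjusted p = 0.126), and it was called lower with the block, as given above. In bilCLiP it had 2236, 1020.2 and 1171 CPM in 3D against 2441, 1524 and 1169 CPM in 2D, groups that overlapped, with replicate 1 the highest in each.

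Rps6, the small-subunit protein phosphorylated by S6 kinases downstream of mTORC1, had 469.9 ± 35.3 CPM in hepCLiP 3D against 473 ± 88.7 CPM in hepCLiP 2D, and 539 ± 119.7 CPM in bilCLiP 3D against 413 ± 53.2 CPM in bilCLiP 2D (SD, n = 3 each). Rpl5 and Rpl11, which bind 5S rRNA and, outside ribosomes, the ubiquitin ligase Mdm2, had log2 fold changes of 0.00 ± 0.21 and -0.29 ± 0.17 in hepCLiP and 0.48 ± 0.21 and 0.24 ± 0.17 in bilCLiP. Rps6, Rpl5 and Rpl11 were not called in either cell kind, but with the replicate block Rps6 (0.37, blocked edgeR adjusted p = 0.0402) and Rpl5 (0.48, 0.02) were called higher in bilCLiP 3D.

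The most abundant members per kilobase of transcript were Rplp1 at 2898, Rpl41 at 1461, Rplp0 at 1446 and Rps2 at 1445 mean CPM per kilobase (mean over all libraries, divided by the length of a GENCODE M21 transcript). The median member stood at 637.9 CPM per kilobase. Its group medians were 565.9 in hepCLiP 3D, 639.7 in hepCLiP 2D, 688.9 in bilCLiP 3D and 583.5 in bilCLiP 2D. At the other end 8 tested members had under 100 CPM per kilobase, from 0.806 for Rpl24 to 85.1 for Rpl7l1. They were Rpl24, Rps3a3, Rps3a2, Rpl6l, Rps10, Rps4l, Rpl13a and Rpl7l1, of which 4 are annotated as pseudogenes. Rpl24, Rps10 and Rpl13a, which are ordinary ribosomal proteins, each share exons on the same strand with another gene model (Gm28037, RPS10-NUDT3 and Gm45713). Gm28037 and Gm45713 had 0 counts in all libraries, and RPS10-NUDT3 matched no row by its symbol. Rpl19 was the only other tested member with such an overlap, leaving small RNAs aside, and stood at 863. How reads that fall in 2 genes were counted is not stated in the labels or file headers, so the levels of Rpl24, Rps10 and Rpl13a, and with them the called fall of Rpl13a, are uncertain.

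Reads from ribosomal protein genes can also match their many processed copies. Of the 100-base windows of a member's GENCODE transcript, a median of 45.1% also occurred in another annotated transcript, and 37 of 84 members had over 50% of windows shared. In Rps27 the share was 98.4% and in Rpl5 91.1%, while Rpl22 and Rps27l shared 0%. The 322 rows named as ribosomal protein pseudogenes, of which 105 had no count, had counts that came to 0.268% to 0.484% of the member counts of a library, in which they are not included. The median culture effect was alike in members with over 50% of windows shared (37; log2 -0.23 in hepCLiP and 0.22 in bilCLiP) and in the rest (47; -0.22 and 0.30).

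Several mammalian ribosomal proteins have paralogs with a tissue pattern. Rpl3l, known from heart and skeletal muscle, had 11 counts over all libraries, and Rpl10l and Rpl39l, known from testis, had none, beside 574 ± 39.6, 839 ± 148 and 247 ± 52.8 CPM for Rpl3, Rpl10 and Rpl39 in hepCLiP 3D. Rps27l, a p53 target paralog of Rps27, had 195, 208 and 230.2 CPM in hepCLiP 3D against 237, 269.8 and 212 CPM in hepCLiP 2D, and 352, 246 and 248 CPM in bilCLiP 3D against 364, 234 and 206 CPM in bilCLiP 2D. The groups overlapped in both cell kinds, and the log2 fold changes were -0.18 ± 0.22 and 0.07 ± 0.22. Rps27 itself had 783, 464 and 509 CPM in bilCLiP 3D against 444, 329 and 291 CPM in bilCLiP 2D, groups without overlap. It was not called without the replicate block (0.72 ± 0.27, edgeR adjusted p = 0.0647) and was called with it (0.71, blocked edgeR adjusted p = 0.00781).

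Rpl22l1, the paralog of Rpl22, had 34.6, 61.7 and 51.4 CPM in hepCLiP 3D against 56.8, 96.2 and 41.6 CPM in hepCLiP 2D, and 82.8, 55.3 and 78.5 CPM in bilCLiP 3D against 78.3, 45.6 and 59.8 CPM in bilCLiP 2D. Libraries of 1 group differed from each other as much as the groups did. Rpl7l1, a relative of Rpl7 that acts in the assembly of the large subunit, was the steadiest of the paralogs, with 110.1 ± 3.49 CPM in hepCLiP 3D against 105 ± 6.64 CPM in hepCLiP 2D, and 122 ± 2.11 CPM in bilCLiP 3D against 109 ± 10.2 CPM in bilCLiP 2D. Its log2 fold changes with TMM were 0.07 ± 0.11 and 0.16 ± 0.11 and not called, but scaled to total counts they were -0.50 and -0.31 and called. Rps4x, on the X chromosome, had 532 ± 99.0 CPM in hepCLiP 3D against 651 ± 161 CPM in hepCLiP 2D and was not called in either cell kind.

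Rps4l, annotated as a transcribed pseudogene related to Rps4x, differed by replicate number rather than by group. It had 22.5, 61.2 and 2.02 CPM in hepCLiP 3D (replicates 1 to 3) and 30.7, 82.7 and 5.65 CPM in hepCLiP 2D, and 6.52, 58.0 and 1.74 CPM in bilCLiP 3D and 6.07, 77.5 and 2.32 CPM in bilCLiP 2D. Replicate 2 was the highest and replicate 3 the lowest library in each of the 4 groups. Of its 100-base windows 2.03% were shared with other transcripts. With the replicate block its fall in hepCLiP 3D was called (log2 -0.69, blocked edgeR adjusted p = 0.0295), and without it was not (-0.47 ± 1.54, edgeR adjusted p = 0.839).

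**Figure D3:**
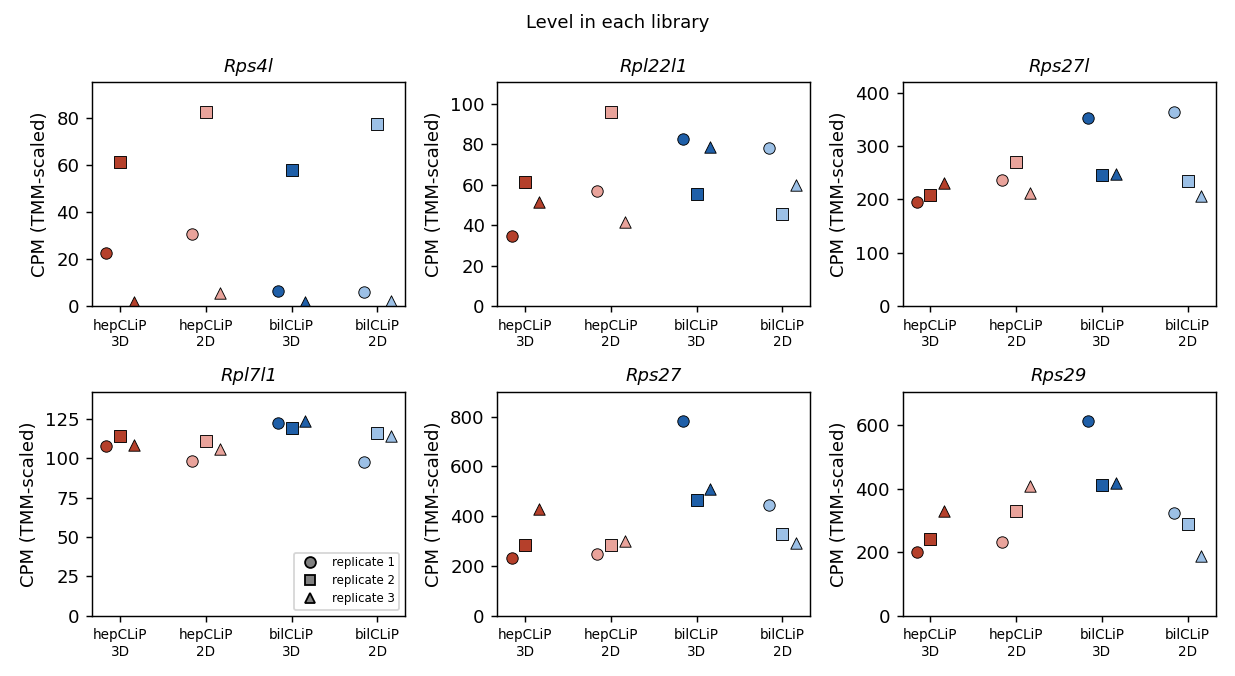
TMM-scaled CPM in each library for the pseudogene-type copy Rps4l, the paralogs Rpl22l1, Rps27l and Rpl7l1, and the ordinary members Rps27 and Rps29, with 3D left of 2D for each cell kind and points shaped by replicate. Rps4l is highest in replicate 2 of all 4 groups, and Rps29 lies higher in all 3 bilCLiP 3D libraries than in any bilCLiP 2D library.

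Most genes that build ribosomes were called lower in hepCLiP 3D, and some in bilCLiP 3D. The counts of this and the following lists stand against the shares of all tested genes. Those were 16.9% higher and 17.9% lower in hepCLiP 3D, and 15.8% higher and 14.5% lower in bilCLiP 3D. With the replicate block they were 22.4% higher and 24.7% lower, and 21.7% higher and 21.5% lower. With total counts they were 8.73% higher and 44.8% lower, and 9.1% higher and 36.6% lower. Of 56 tested ribosome biogenesis factors, 36 were called lower and 0 higher in hepCLiP 3D, and 17 lower and 0 higher in bilCLiP 3D (edgeR), against 17.9% and 14.5% of all genes called lower. The list had median log2 fold changes of -0.61 and -0.38, beside the member medians of -0.23 and 0.25. Both list medians were below 0 under each scaling tried, with 55 lower in hepCLiP and 46 in bilCLiP scaled to total counts, and with the replicate block 43 were lower in hepCLiP and 26 lower and 1 higher in bilCLiP. Nop2, an rRNA methyltransferase of the large subunit, had 45.9 ± 1.68 CPM in hepCLiP 3D against 104 ± 9.09 CPM in hepCLiP 2D, and 58.2 ± 3.52 CPM in bilCLiP 3D against 94.9 ± 17.2 CPM in bilCLiP 2D (SD, n = 3 each). Its log2 fold changes were -1.17 ± 0.14 in hepCLiP and -0.70 ± 0.14 in bilCLiP (edgeR adjusted p = 0.000206 and 0.00329). Nop56, a core protein of box C/D snoRNPs, changed by -1.05 ± 0.17 and -0.69 ± 0.17, and Nolc1, a nucleolar chaperone of snoRNPs, by -1.05 ± 0.16 and -0.68 ± 0.16. Utp20, a small-subunit processome protein, changed by -0.86 ± 0.21 and -0.89 ± 0.21. All 6 of these values were called.

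Of 14 RNA polymerase I genes and factors, 4 were called lower and 0 higher in hepCLiP 3D, and 1 lower and 1 higher in bilCLiP 3D, or 8 lower in hepCLiP and 3 lower and 1 higher in bilCLiP with the replicate block. With total counts 11 were lower and 0 higher in each. Polr1a, the largest subunit of that polymerase, changed by -0.79 ± 0.14 in hepCLiP and -0.52 ± 0.14 in bilCLiP (edgeR adjusted p = 0.00213 and 0.0194). Myc fell in both: it had 25.7 ± 5.03 CPM in hepCLiP 3D against 104 ± 15.6 CPM in hepCLiP 2D, and 29.3 ± 4.06 CPM in bilCLiP 3D against 78.3 ± 0.951 CPM in bilCLiP 2D. The log2 fold changes were -2.02 ± 0.17 and -1.42 ± 0.17 (edgeR adjusted p = 4.64e-05 and 0.000235). In the list of 11 tested MYC family genes and partners, 3 were called higher and 3 lower in hepCLiP 3D, and 2 higher and 1 lower in bilCLiP 3D (4 and 2 with the block). Scaled to total counts it was 1 higher and 5 lower in hepCLiP and 1 higher and 3 lower in bilCLiP. Mxi1, a repressor that competes with MYC for MAX, rose by 1.85 ± 0.29 and 1.24 ± 0.29.

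Other genes with TOP mRNAs, which share the translational control of the members but not their protein family, gave 4 lower and 0 higher of 18 in hepCLiP 3D and 1 lower and 0 higher in bilCLiP 3D (2 lower and 1 higher with the replicate block). For each list here, 17.9% of all tested genes were called lower in hepCLiP 3D and 14.5% in bilCLiP 3D. Total-count scaling gave 15 lower in hepCLiP and 7 in bilCLiP. Hnrnpa1, an RNA-binding splicing factor, had log2 fold changes of -1.50 ± 0.16 in hepCLiP and -0.83 ± 0.16 in bilCLiP, and Npm1, a nucleolar chaperone, changed by -0.84 ± 0.22 in hepCLiP (edgeR adjusted p = 0.0137). Of 28 translation initiation factors, 10 were called lower and 0 higher in hepCLiP 3D, and 3 lower and 1 higher in bilCLiP 3D (7 lower and 1 higher with the block). Here 26 were lower in hepCLiP and 23 in bilCLiP with total counts. Eif3d, a cap-binding subunit of eIF3, changed by -0.73 ± 0.15 and -0.50 ± 0.15. Of 12 snoRNA host RNAs, 2 were called lower in hepCLiP 3D, Snhg15 and Snhg17, and none in bilCLiP 3D (2 higher and 0 lower at an unadjusted p under 0.05). With the block 4 were lower in hepCLiP 3D, and in bilCLiP 3D 3 were lower, Snhg15 and Snhg17 among them, and 1 higher. By total counts 6 were lower in hepCLiP 3D and 3 in bilCLiP 3D.

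Among 23 genes of mTORC1 and of the control of TOP mRNAs, 5 were called higher and 0 lower in hepCLiP 3D, and 4 higher and 1 lower in bilCLiP 3D. These higher counts were near the shares of all tested genes, 16.9% in hepCLiP and 15.8% in bilCLiP. With the block the calls were 7 higher and 1 lower in hepCLiP and 6 higher and 3 lower in bilCLiP, and with total counts 2 higher and 7 lower in hepCLiP and 2 higher and 6 lower in bilCLiP. Those called higher in both were Deptor, an inhibitory partner of mTOR, at 2.10 ± 0.50 and 2.47 ± 0.51, Pdcd4, an eIF4A inhibitor degraded after S6 kinase phosphorylation, at 2.20 ± 0.37 and 2.19 ± 0.38, Eif4ebp2, a repressor of eIF4E, at 0.84 ± 0.17 and 0.76 ± 0.17, and Rps6kb2, an S6 kinase, at 0.58 ± 0.19 and 0.63 ± 0.19. Sesn2, an inhibitor of mTORC1 under stress or leucine loss, fell in bilCLiP 3D (-1.08 ± 0.28), and in hepCLiP 3D was called only with the block (-0.61) and with total counts. Eif4ebp2 and Rps6kb2 were not called with total counts. Mtor changed by 0.33 ± 0.19 and 0.20 ± 0.19 and Larp1 by 0.23 ± 0.21 and 0.12 ± 0.21, neither of them called.

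Mitochondrial ribosomal proteins are also encoded in the nucleus but serve another ribosome. Of 77 tested, 7 were called higher and 1 lower in hepCLiP 3D, and 19 higher and 0 lower in bilCLiP 3D, with medians of 0.12 and 0.26. The hepCLiP count was below the 16.9% of all tested genes called higher there, and the bilCLiP count above 15.8%. With the block 11 were higher and 7 lower in hepCLiP, and 28 higher and 0 lower in bilCLiP. Of all genes 22.4% and 21.7% were then called higher. With total counts the medians were -0.45 and -0.21, with 40 lower in hepCLiP and 16 lower in bilCLiP. Mrpl50 had 135 ± 23.9 CPM in hepCLiP 3D against 57.8 ± 3.14 CPM in hepCLiP 2D, and 174 ± 3.62 CPM in bilCLiP 3D against 54.5 ± 10.0 CPM in bilCLiP 2D. Its log2 fold changes were 1.22 ± 0.16 and 1.67 ± 0.16 (edgeR adjusted p = 0.000369 and 9.25e-05). Mrps31 changed by 0.85 ± 0.27 and 1.11 ± 0.27, and Mrps25 was the gene called lower in hepCLiP (-0.44 ± 0.14).

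Of 11 genes of p53 and its targets, which can respond to free Rpl5 and Rpl11, 6 were called lower in hepCLiP 3D and 4 in bilCLiP 3D (7 with the block), with 0 higher in both. Of all tested genes 17.9% and 14.5% were called lower. Scaled to total counts 9 were lower in each. Trp53 changed by -1.51 ± 0.14 and -0.88 ± 0.13, Mdm2 by -0.99 ± 0.14 and -1.24 ± 0.14, and Ccng1, a p53 target cyclin, by -1.99 ± 0.24 and -1.71 ± 0.24. Of 14 genes of ribosome recycling, rescue and storage, 2 were called higher and 1 lower in hepCLiP 3D and 0 in bilCLiP 3D (there 1 higher and 1 lower at an unadjusted p under 0.05, and 1 lower by DESeq2). With the block 3 were higher and 2 lower in hepCLiP and 1 higher and 0 lower in bilCLiP. Scaled to total counts 11 were lower in hepCLiP and 7 in bilCLiP, with 0 higher. With TMM and without the block the gene called lower in hepCLiP 3D was Serbp1 (-0.48 ± 0.11), which clamps idle ribosomes. Among 4 ribosomal proteins outside the naming rule, edgeR with TMM called none in either culture comparison, and 1 had an unadjusted p under 0.05. DESeq2 called 1, Rpl36al, higher in hepCLiP 3D. Scaled to total counts, 2 of the 4 were called lower in hepCLiP 3D and 0 in bilCLiP 3D, with 0 higher in both.

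**Figure D4:**
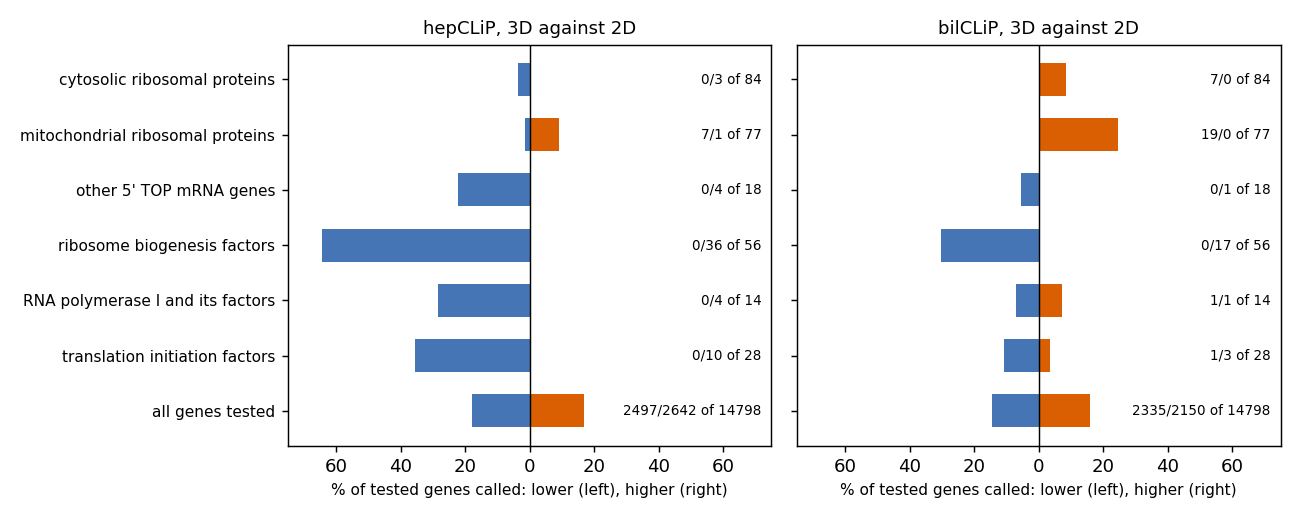
Percent of the tested genes of each list called lower (bars to the left) or higher (bars to the right) by edgeR at an adjusted p under 0.05 in hepCLiP and bilCLiP, 3D against 2D. Figures at the right of each panel are genes higher and genes lower of those tested. Ribosomal protein genes had 3 of 84 lower in hepCLiP and 7 of 84 higher in bilCLiP, while ribosome biogenesis factors had 36 and 17 of 56 lower.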

How the data were processed

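The authors deposited a table of raw counts per gene and a table of normalized counts, here called signal, whose columns equal raw counts divided by a constant per sample. According to the submitters' processing notes, the build was GRCm39 and the tools included featureCounts 2.0.1, STAR 2.7.10b and DESeq2 (no version). Annotation, strand setting and the treatment of reads with several matches: not given in the sources used here. Copies, overlapping genes and antisense genes therefore could not be separated.

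Raw counts of all 12 libraries were fitted together in R 4.3.3 with edgeR 4.0.16 (filterByExpr, TMM scaling, robust quasi-likelihood, 4 group means), and p-values were adjusted by Benjamini-Hochberg over all 14798 genes. Alternatives were DESeq2 1.42.0, limma 3.58.1 on log2(value + 1) of the authors' table, other scalings, no filter, RosaYFP libraries only and each library left out. Code was tested on simulated data. No label states whether replicates are separate animals or cultures, and p-values therefore cover just the spread between these libraries. Same-numbered 3D and 2D libraries correlated in their deviations from group means at 0.493 to 0.509 (hepCLiP) and 0.422 to 0.52 (bilCLiP), so the number was used as a block within an origin. Across origins they were 0.061 to 0.115, and the numbers were not taken as pairs. The members and the gene lists were chosen with earlier results of these data known. Named were, per comparison, the 6 largest called rises and falls among members, members with paralogs or special roles, the highest and lowest, and up to 4 called genes per other list with the largest changes. Genes called with the block and Rpl41, Rps2, Rps10, Rps28, Rpl29, Rpl14, Rpl36a, Rpl26, Rpl19, Mrps25 and the members under 100 CPM per kilobase were added after their values were seen. Of the genes this rule selects, 1 member called higher in bilCLiP 3D and 1 gene outside the members enter the counts but are not reported by name here.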

Additional observations from a re-analysis of the deposited data

How the results depend on the processing

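The count of members called lower in hepCLiP 3D (3) became 0 at an adjusted p under 0.01, 62 with total-count scaling, 1 without the low-count filter, 16 with the replicate block and 0 with RosaYFP libraries only, where hepCLiP has 1 library per culture and its spread is taken from bilCLiP. It ran from 0 to 5 when single libraries were left out. The count called higher in bilCLiP 3D (7) became 0 at an adjusted p under 0.01, 0 with total counts (with 4 lower), 2 with upper-quartile scaling, 14 with DESeq2, 1 without the filter, 29 with the replicate block and 3 with RosaYFP libraries only, and ran from 0 to 7 without single libraries. Total counts moved the medians to -0.8 in hepCLiP and -0.22 in bilCLiP, and reversed Rpl7l1 to -0.503 in hepCLiP 3D against 2D and to -0.31 in bilCLiP 3D against 2D, with all genes shifted downward. For bilCLiP against hepCLiP in 3D, DESeq2 called 8 higher, and leaving out single libraries gave 0 to 3 calls and medians of 0.207 to 0.498. The median difference between culture effects ran from 0.31 to 0.653 without single libraries. The hepCLiP 3D share of counts was 3.605% without the 10 most abundant other genes. Where no cause is given above, the cause was not tested. Replicate blocks across origins gave 0 member calls in either origin comparison. The block within an origin gave 0 member calls for the difference between culture effects. Among values of the members that the naming rule for the text selects, 1734 kept their side of the threshold, 92 lost and 25 gained a call. Another 66 stayed uncalled but moved by more than their error. Only the 3 hepCLiP and 7 bilCLiP calls of the main fit could be lost, and all 92 came from them. Most of the 1734 were uncalled values that stayed uncalled, so 1734 is no measure of how steady the calls were. Uncalled values that stayed within their error were counted among the 1734 whatever their sign. The median SE of a member's log2 fold change was 0.213 in both culture comparisons, about the size of the medians themselves, and members vary together.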
